A study of Mus musculus with 18 samples.

Results

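The genes described here are the metallothioneins Mt1 and Mt2 and 5 genes that surround them in liver metal handling: the transcription factor Mtf1, the exporters Slc30a1 and Slc30a10, and the importers Slc39a14 and Slc39a4. They were chosen by name, with earlier results of these data known. All 7 were found among the 21153 named genes of the array, on 10 of its 39429 probes. Livers of 18 male C57BL/6 mice were measured, with 1 array per mouse. Mice were fed a diet with 10% of energy as fat (LFD) or 60% (HFD) from 6 weeks of age. After 10 weeks some of them received methotrexate, an antifolate chemotherapy drug, by intraperitoneal injection at 50 mg/kg in 5 rounds (MTX50), and liver was taken 1 week after the last dose. The groups held 4 mice (LFD), 5 mice (LFD MTX50), 4 mice (HFD) and 5 mice (HFD MTX50), and the LFD and HFD groups received no drug. Whole liver was used, so fewer cells of a type and less RNA per cell cannot be told apart.

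Metallothioneins are small cysteine-rich proteins that bind zinc and copper ions, and the liver is a main site of their synthesis. Their genes are switched on by zinc through MTF1, a zinc finger factor that binds metal response elements in their promoters, and also by glucocorticoids and by interleukin-6 acting through STAT3. ZnT proteins (Slc30a genes) move zinc or manganese out of the cytosol, whereas ZIP proteins (Slc39a genes) move metal into it.

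Mt1, Mt2 and Slc30a1 are classical MTF1 targets, and the 250 bases upstream of their annotated starts are shown. These 3 genes changed in the comparisons that follow. Slc30a10 and Mtf1 changed there as well, and for them only the numbers of matches are given. The sequences are from RefSeq on mouse build GRCm38.p6, written 5′ to 3′ on the strand of the gene, with each match to TGCACNC or TGCGCNC, the core of the metal response element, on either strand in capitals.
Mt1, chr8:94178839-94179088, + strand: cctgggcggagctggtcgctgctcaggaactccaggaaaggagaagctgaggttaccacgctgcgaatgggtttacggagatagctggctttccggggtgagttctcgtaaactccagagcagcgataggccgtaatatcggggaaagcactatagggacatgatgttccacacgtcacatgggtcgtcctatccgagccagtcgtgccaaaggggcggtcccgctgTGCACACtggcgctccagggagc
Mt2, chr8:94172368-94172617, + strand: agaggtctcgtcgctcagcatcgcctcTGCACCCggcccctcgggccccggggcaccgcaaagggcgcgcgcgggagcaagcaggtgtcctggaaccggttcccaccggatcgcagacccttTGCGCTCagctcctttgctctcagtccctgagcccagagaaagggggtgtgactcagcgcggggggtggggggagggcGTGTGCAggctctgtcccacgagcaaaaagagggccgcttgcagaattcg
Slc30a1, chr1:191906531-191906780, + strand: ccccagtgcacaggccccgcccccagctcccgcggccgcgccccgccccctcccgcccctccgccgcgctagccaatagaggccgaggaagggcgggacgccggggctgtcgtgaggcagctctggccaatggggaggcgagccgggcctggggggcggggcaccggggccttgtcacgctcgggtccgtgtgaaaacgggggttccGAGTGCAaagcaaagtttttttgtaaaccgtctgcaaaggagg

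The Mt1 stretch held 1 match, whose first base lay 23 bases before the start. Matches of Mt1 that began at bases 3 and 21, counted from the annotated start, fell outside the printed stretch. Other starts of these genes were not examined. The Mt2 stretch held 3, which began 223, 128 and 50 bases before the start, and the Slc30a1 stretch held 1, which began 43 bases before it. Counted over the whole RefSeq window of 300 bases (250 before the start and 50 after it), there were 3 matches for Mt1, 4 for Mt2, 2 for Slc30a1 and 3 for Slc30a10, of which a pair overlapped on opposite strands, and 0 for Mtf1. Of all 32851 such windows, 25.7% held at least 1 match, 7.11% held 2 or more and 1.97% held 3 or more. A match is a description of the sequence only, and Slc39a14 and Slc39a4 have no window in the table used.

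Array intensities are given as log2 values relative to the 75th percentile of the same array, so that 0 is the intensity at that percentile and a difference of 1 is a 2-fold difference. Levels of different probes are not compared. The 75th percentile lay between 1203 and 2263 intensity units, and 83.86 to 90.6% of probes were well above background. The mean correlation of an array with the other arrays of its group was 0.98 to 0.992. All 5 hepatocyte markers (Alb, Ttr, Apoa1, Cps1 and Hnf4a) were above background on every array. The 18 arrays lay on 6 slides, and LFD and LFD MTX50 each shared no slide with another group, so that for every comparison made with either of them the slide and the group cannot be told apart. Markers of other cells are given as ranges of their summed levels, and the sums were not tested. As single genes, treatment on LFD called 3 of 3 erythroid markers lower, 1 of 5 neutrophil markers higher and 2 of 6 macrophage markers lower (limma adjusted p below 0.05). Treatment on HFD called 0 in each of these lists. Of all genes, 28.1% were called on LFD and 11% on HFD. The summed level of 3 erythroid markers (Hbb-bt, Hba-a1 and Alas2, all above background on every array, in linear multiples of the 75th percentile) was 29.9 to 47.1 in LFD and 16 to 41.4 in HFD, against 0.912 to 1.4 in LFD MTX50 and 1.25 to 158 in HFD MTX50, where mice 4 and 5 (69.2 and 158) stood apart from the other 3 (1.25 to 2.76). The sum of 5 neutrophil markers, of which Ngp was above background on no untreated array, was 0.984 to 1.32 in LFD and 0.991 to 2 in HFD, and after treatment 1.08 to 6.82 and 1.14 to 54.9. Macrophage markers (6 of 6 above background on all arrays) summed to 45.1 to 62.4 in untreated LFD livers, 32.4 to 40 after treatment, 33.1 to 57.4 in untreated HFD livers and 53 to 78.3 after treatment. The part of these cells in the results that follow was not tested.

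Both metallothioneins rose strongly after methotrexate on both diets. Mt1 was 28.7-fold higher in LFD MTX50 than in LFD and 22-fold higher in HFD MTX50 than in HFD, and Mt2 was 35.6-fold and 31-fold higher. The sizes depended on mouse 4 of each treated group, the least changed: the log2 differences of Mt1, 4.84 and 4.46, were 5.72 and 5.14 without it, and those of Mt2, 5.15 and 4.95, were 6.08 and 5.78. Diet alone moved neither gene past the test, and the treated groups of the 2 diets differed by -0.01 for Mt1 and 0.28 for Mt2 on the log2 scale, neither past the test.

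Mt1 was read on the brighter of its 2 probes, which is annotated to transcript NM_013602. In LFD livers its log2 level was 0.90, 1.77, 0.74 and 0.41 in mice 1 to 4. In LFD MTX50 it was 6.66, 5.45, 7.12, 2.29 and 7.48 in mice 1 to 5. The groups did not overlap, and mouse 4 was the treated liver nearest to the controls. In HFD the levels were 0.98, 2.03, 1.71 and 0.61, and in HFD MTX50 they were 5.78, 7.40, 5.22, 3.04 and 7.51. Here too the groups did not overlap and mouse 4 was the lowest treated liver. The log2 difference was 4.84 ± 0.95 (SE) on LFD (adjusted p = 0.0036, limma; exact permutation p = 0.0159) and 4.46 ± 0.95 on HFD (adjusted p = 0.0131; exact permutation p = 0.0159), where the smallest exact p that 5 against 4 mice allow is 0.0079. HFD against LFD gave 0.38 ± 1.00 (limma adjusted p = 0.795), HFD MTX50 against LFD MTX50 gave -0.01 ± 0.89 (adjusted p = 0.995), and the treatment effects on the 2 diets differed by -0.39 ± 1.34 (adjusted p = 0.848). The model shares the variance over the 4 groups. The spread among treated mice was 2.11 (SD, n = 5) on LFD and 1.83 (SD, n = 5) on HFD, against 0.58 and 0.65 (SD, n = 4) in the untreated groups. The intervals of the comparisons with treated mice therefore leave room for sizeable differences. For HFD against LFD, a fit of these untreated groups alone gave 0.38 ± 0.37 (limma adjusted p = 0.428).

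Mt2, which lies beside Mt1 on the same chromosome, gave the same picture on its single probe. Its log2 levels were -0.56, -0.11, -0.67 and -0.94 in LFD and 4.97, 3.87, 6.37, 0.87 and 6.84 in LFD MTX50. They were -0.45, 0.30, 0.43 and -0.63 in HFD and 5.06, 6.65, 4.00, 1.56 and 7.06 in HFD MTX50. Treated and untreated livers did not overlap on either diet. Mouse 4 was the lowest of every group, treated or not, as it was for Mt1. Treatment raised Mt2 by 5.15 ± 1.08 on LFD (limma adjusted p = 0.0047) and by 4.95 ± 1.08 on HFD (adjusted p = 0.0143), with an exact permutation p of 0.0159 in both. HFD against LFD gave 0.48 ± 1.14 (limma adjusted p = 0.769), and 0.48 ± 0.27 in a fit of these untreated groups alone (adjusted p = 0.179). The treatment effects differed between diets by -0.20 ± 1.53 (limma adjusted p = 0.934).

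The second Mt1 probe, annotated to a predicted transcript (XM_006530752), changed far less between groups than the first. It read -0.18, -0.10, 0.10 and 0.14 in LFD livers and 0.22, -0.29, 0.54, -0.24 and 1.36 after treatment. On HFD it read -0.03, -0.12, 0.06 and 0.24, and 0.04, 0.81, 0.24, -0.36 and 0.50 after treatment. Treated and untreated livers overlapped on both diets. Its difference was 0.33 on LFD (limma adjusted p = 0.375) and 0.21 on HFD (adjusted p = 0.637), so an average over both probes gave Mt1 differences of 2.59 and 2.33, both still called (adjusted p = 0.0065 and 0.0232). Which of the transcripts each probe detects was not tested.

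**Figure D1:**
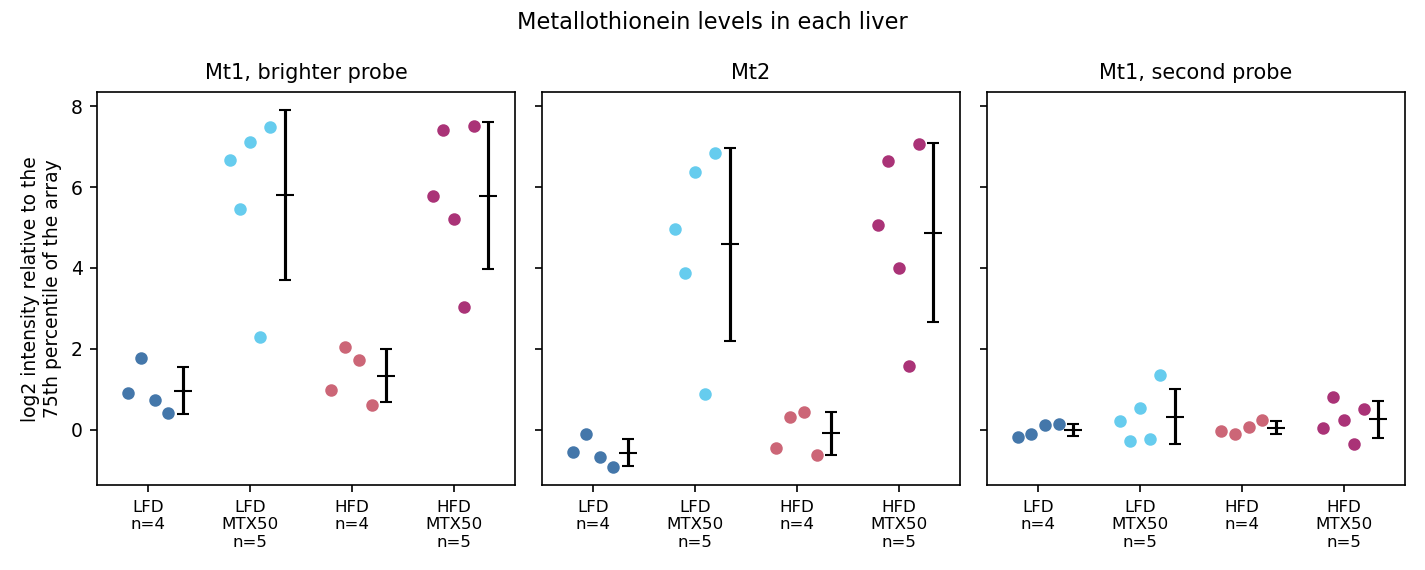
Levels of Mt1 and Mt2 in each liver (y axis, log2 intensity relative to the 75th percentile of the array; 1 point per mouse, bar at the mean with SD beside each group; 4 or 5 mice per group). On the brighter Mt1 probe and on the Mt2 probe every treated liver lay above every untreated liver of the same diet, with mouse 4 lowest in each treated group, whereas the second Mt1 probe overlapped between groups.

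The calls in the 2 metallothioneins had different weak points on the 2 diets. On HFD, 2 untreated and 2 treated mice shared a slide, and a fit with slide as a fixed term gave 5.43 ± 1.44 for Mt1 (limma adjusted p = 0.037) and 5.95 ± 1.59 for Mt2 (adjusted p = 0.0384), but without HFD mouse 4 the adjusted p rose to 0.0562 and 0.0573, and a fit of the HFD arrays alone called no gene of the array (adjusted p = 0.0696 and 0.0711, with 4 of the 7 genes at an unadjusted p below 0.05). Without HFD MTX50 mice 4 and 5, whose erythroid markers stood apart (a setting chosen after seeing the data), the differences were 4.80 and 5.32 (limma adjusted p = 0.0146 and 0.0144). On LFD, slide as a random block ended both calls (adjusted p = 0.0628 and 0.0679) with differences of 5.07 and 5.46. A normexp background correction left the sizes similar, at 4.58 and 4.88 on LFD and 4.13 and 4.43 on HFD, but kept the call of Mt2 on LFD alone (limma adjusted p = 0.0496) and ended the calls of the transporters and Mtf1 described next, with Mtf1 on LFD turned from -0.44 to 0.14. Under it the median difference of all genes was 0.47 on LFD and 0.39 on HFD, in place of 0.10 and -0.04. It called 0 genes of the array in HFD MTX50 against HFD, where 4 of the 7 genes had an unadjusted p below 0.05. The share of all genes at that unadjusted threshold was not counted, so these counts of the 7 genes have nothing to be set against.

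Mt1 and Mt2 moved together from mouse to mouse within groups. Treated and untreated livers form separate clusters, so relations were computed on deviations from the group means, and 6 were tested, each of the other genes against Mt1 in 18 mice. For Mt2, Pearson's r was 0.983 and Spearman's rho 0.961 (permutation p = 1.0e-05 for both, the smallest that 100000 permutations can give; adjusted p = 6.0e-05). Without the 2 mice farthest from the median, mouse 4 of each treated group, r was 0.947. It was 0.989 among the 10 treated mice, 0.954 among the 8 untreated mice and 0.984 with deviations taken within slides.

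Slc39a14 (ZIP14), a zinc, iron and manganese importer that interleukin-6 induces in hepatocytes, rose after methotrexate on both diets. Its log2 levels were 2.61, 2.82, 2.49 and 2.42 in LFD and 3.97, 3.15, 3.44, 2.90 and 3.95 in LFD MTX50. They were 2.54, 2.17, 1.71 and 2.08 in HFD and 3.32, 3.34, 3.13, 2.73 and 3.81 in HFD MTX50. No treated liver overlapped with the untreated livers of its diet. The rise was 0.90 ± 0.24, or 1.86-fold, on LFD (limma adjusted p = 0.0132) and 1.14 ± 0.24, or 2.21-fold, on HFD (adjusted p = 0.0119), with an exact permutation p of 0.0159 in each, and the effects differed between diets by 0.24 ± 0.34 (adjusted p = 0.603). HFD against LFD was -0.46 (limma adjusted p = 0.163). The call on HFD was lost without HFD mouse 3, which had the lowest level (adjusted p = 0.058), and that on LFD with slide as a random block (adjusted p = 0.108).

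Slc39a14 followed Mt1 within groups with r = 0.737 and rho = 0.746 (permutation p = 0.0036 and 0.0029; adjusted p = 0.0107 and 0.0087). The relation rested on mouse 4 of each treated group, since r was 0.496 without them (permutation p = 0.0982). It was 0.859 among the 10 treated mice and 0.067 among the 8 untreated mice, and 0.733 within slides. The other 4 relations did not pass, with r of -0.508 for Slc30a10 (adjusted permutation p = 0.259), -0.204 for Slc39a4, -0.0874 for Slc30a1 and -0.000952 for Mtf1.

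**Figure D2:**
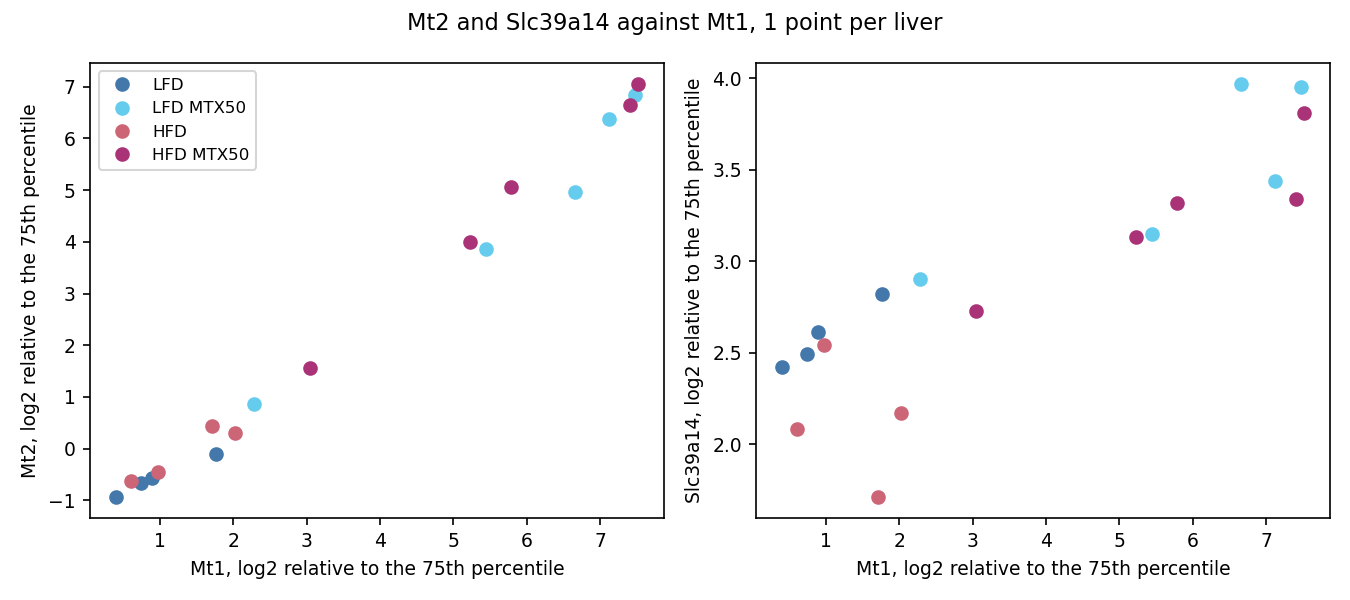
Mt2 (left) and Slc39a14 (right) against Mt1 in the 18 livers, all as log2 intensity relative to the 75th percentile of the array, 1 point per mouse coloured by group. Mt2 rose with Mt1 inside and between groups (within-group r = 0.983), whereas the relation of Slc39a14 to Mt1 was looser (0.737) and its r was 0.067 among the 8 untreated mice.

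Slc30a1 (ZnT1), the plasma membrane zinc exporter, was lower in HFD than in LFD and higher after methotrexate on HFD. Its log2 levels were 0.61, 0.33, 0.35 and 0.47 in LFD and -0.01, -0.06, -0.18 and -0.33 in HFD, with no overlap. In HFD MTX50 they were 0.35, 0.62, 1.09, 0.70 and 0.68, all above the HFD livers. HFD against LFD was -0.58 ± 0.15 (limma adjusted p = 0.0111; exact permutation p = 0.0286, the smallest that 4 against 4 mice allow), and HFD MTX50 against HFD was 0.83 ± 0.14, a 1.78-fold rise (adjusted p = 0.0067; exact permutation p = 0.0079, also the smallest possible). LFD MTX50 livers, at 0.37, 0.49, 0.79, 0.78 and 0.88, overlapped with LFD and gave 0.22 ± 0.14 (limma adjusted p = 0.229). The difference between the treatment effects was 0.61 ± 0.20 (limma adjusted p = 0.0315), and the 2 treated groups differed by 0.03 (adjusted p = 0.909). That difference lost its call in 6 of the 18 fits that left out 1 array (limma adjusted p of at most 0.0738, with HFD mouse 4 left out), without HFD MTX50 mice 4 and 5 together (0.0739), under quantile normalization (0.0538) and with slide as a random block (0.138). The random block also ended the call of HFD against LFD (0.0886), and a 2-fold minimum ended all 3 calls of this gene.

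Slc30a10 (ZnT10), a manganese exporter at the canalicular face of hepatocytes, was lower in HFD than in LFD. Its log2 levels were -0.04, -0.53, -0.09 and 0.31 in LFD and -1.27, -1.44, -1.11 and -1.14 in HFD. The groups did not overlap and the difference was -1.15 ± 0.31, a 2.22-fold reduction in HFD, with a limma adjusted p of 0.0146 and an exact permutation p of 0.0286. LFD MTX50 livers read -1.85, -0.64, -1.49, 0.05 and -0.93, with mouse 4 among the LFD values. They lay -0.88 ± 0.29 from LFD, a 1.85-fold reduction with a limma adjusted p of 0.034 and an exact permutation p of 0.0794, and 5 of the 18 fits without 1 array lost this call. With slide as a random block neither difference was called (limma adjusted p = 0.114 for HFD against LFD and 0.217 for LFD MTX50 against LFD). HFD MTX50 livers, at -0.93, -1.70, -1.37, -1.61 and -1.06, overlapped with HFD (-0.10, limma adjusted p = 0.85), and the treatment effects differed by 0.79 (adjusted p = 0.16).

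Slc39a4 (ZIP4), the zinc importer best known from the intestine, was higher on HFD with and without the drug. Its log2 levels were 1.05, 0.82, 1.34 and 0.78 in LFD and 1.38, 2.14, 2.08 and 1.75 in HFD, with no overlap. They were 1.41, 1.18, 0.69, 1.90 and 1.17 in LFD MTX50 and 2.79, 1.91, 1.49, 2.08 and 2.49 in HFD MTX50, which overlapped. HFD against LFD was 0.84 ± 0.27, a 1.79-fold excess, with a limma adjusted p of 0.0324 and an exact permutation p of 0.0286. HFD MTX50 against LFD MTX50 was 0.88 ± 0.24, a 1.84-fold excess, with a limma adjusted p of 0.025 and an exact permutation p of 0.0159. Treatment gave 0.27 on LFD (limma adjusted p = 0.442) and 0.32 on HFD (adjusted p = 0.417). Leaving out single arrays ended the diet call in untreated mice in 6 of 18 fits (the adjusted p reached 0.0983 when HFD mouse 3 was omitted) and in treated mice in 4 of 18 (it reached 0.069 when LFD MTX50 mouse 3 was omitted), and so did the loss of HFD MTX50 mice 4 and 5 (0.80, adjusted p = 0.11). Scaling to the array median moved the diet difference in untreated mice to 0.74 (adjusted p = 0.0535). Slide as a random block ended both diet calls, with 0.80 in untreated mice (limma adjusted p = 0.186) and 0.90 in treated mice (adjusted p = 0.157). Intestinal markers, of which Cdx2 was above background on no array, summed to 11.1 to 17.1 in LFD, 20 to 21.7 in HFD, 3.22 to 7.84 in LFD MTX50 and 5.13 to 19.5 in HFD MTX50, and their part in the Slc39a4 levels was not tested.

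Mtf1 itself did not rise in any comparison that passed the test, and its 2 tested probes passed in different comparisons. On the brighter probe the log2 levels were -1.96, -1.52, -1.88 and -1.49 in LFD and -2.26, -2.03, -1.99, -1.98 and -2.48 in LFD MTX50. They were -2.06, -2.04, -2.08 and -2.04 in HFD and -1.59, -1.95, -2.33, -2.21 and -1.88 in HFD MTX50. LFD livers lay above LFD MTX50 and HFD livers without overlap. Treatment on LFD gave -0.44 ± 0.15 (limma adjusted p = 0.0397; exact permutation p = 0.0079), HFD against LFD gave -0.34 ± 0.16 (adjusted p = 0.11), and treatment on HFD gave 0.06 (adjusted p = 0.813). HFD against LFD was called in 3 of 16 other settings. It was -0.47 under quantile normalization (limma adjusted p = 0.0489), -0.44 under scaling to the array median (adjusted p = 0.047) and -0.44 with the 2 probes averaged (adjusted p = 0.0163). Under normexp correction it was 0.17 (adjusted p = 0.763). The LFD call was lost in 4 of the 18 fits without 1 array and with slide as a random block (adjusted p = 0.16), and under another background correction the sign turned (0.14, adjusted p = 0.787).

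The second Mtf1 probe read -2.03, -1.72, -2.08 and -1.70 in LFD and -2.18, -2.04, -2.22, -2.30 and -2.0 in LFD MTX50. It read -2.22, -2.33, -2.77 and -2.41 in HFD and -1.96, -2.30, -2.21, -2.04 and -1.92 in HFD MTX50. HFD was the lowest group on this probe, without overlap with LFD. HFD against LFD was -0.55 ± 0.13 (limma adjusted p = 0.01), treatment gave -0.26 on LFD (adjusted p = 0.122) and 0.35 ± 0.13 on HFD (adjusted p = 0.081), and the 2 treatment effects differed by 0.61 ± 0.18 (adjusted p = 0.0219). Slide as a random block ended both calls of this probe (limma adjusted p = 0.0789 and 0.0874), and so did the normexp correction (0.08 and 0.35, adjusted p = 0.894 and 1). The remaining Mtf1 probe was well above background on 0 of 18 arrays and was not tested.

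**Figure D3:**
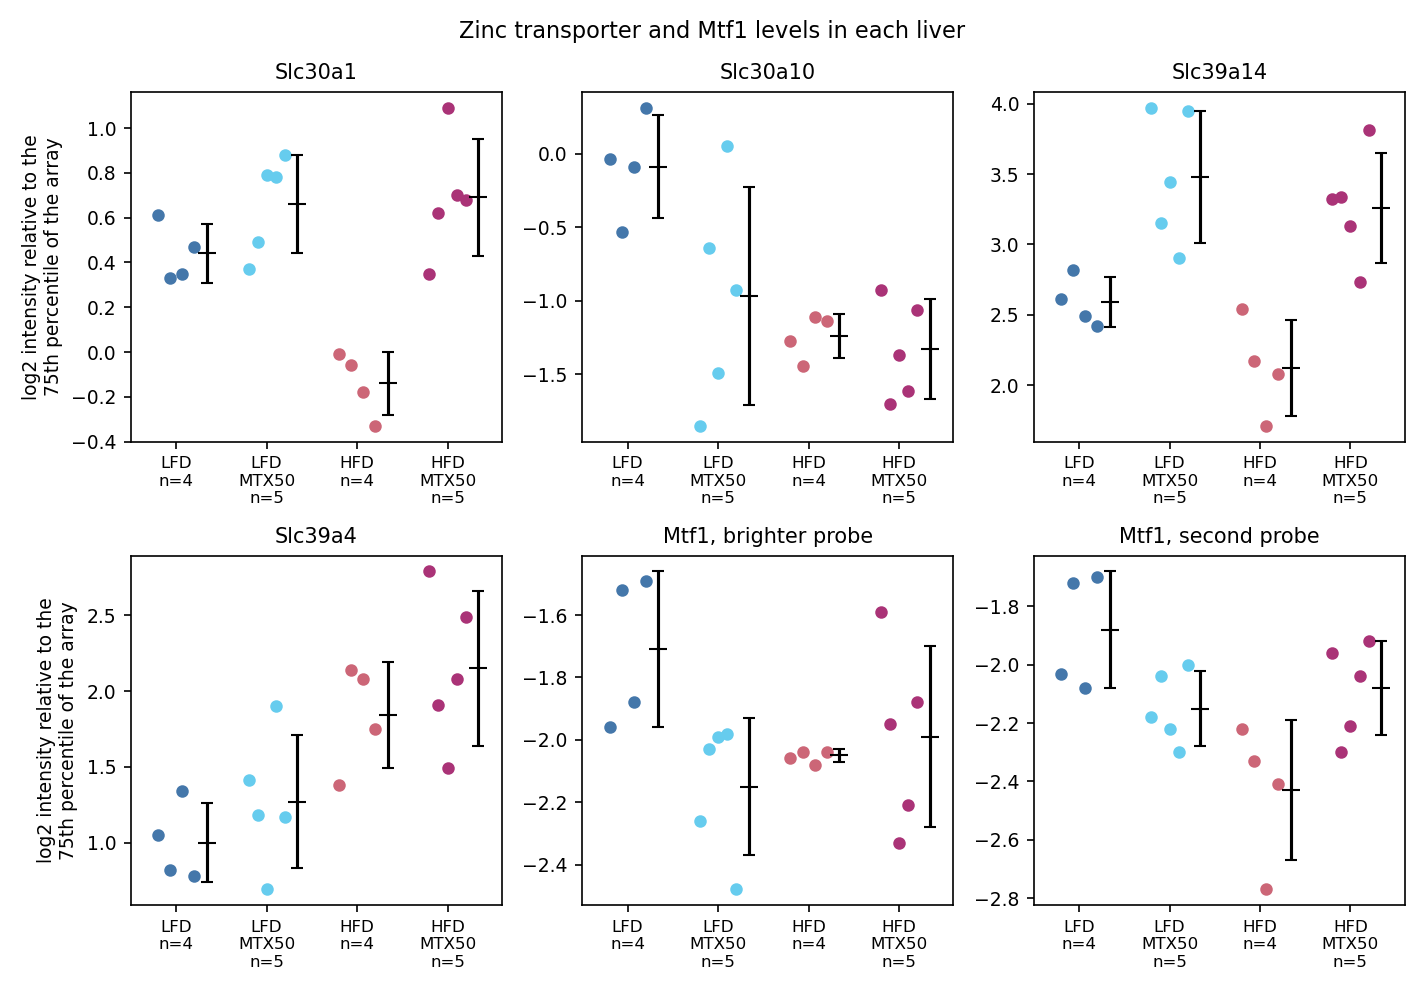
Levels of the 4 zinc and manganese transporters and of the 2 tested Mtf1 probes in each liver (y axis, log2 intensity relative to the 75th percentile of the array, with its own range in each panel; 1 point per mouse, bar at the mean with SD). Slc39a14 was higher in both treated groups, Slc30a1 was lowest in HFD, Slc30a10 was highest in LFD and Slc39a4 was higher on HFD.

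Counted over the 7 genes on their brightest probes, 4 were called higher in HFD MTX50 than in HFD (Mt1, Mt2, Slc30a1 and Slc39a14) and none lower, beside 11% of all 19598 named genes called in either direction, 4.83% called higher and 6.13% called lower. Their median difference was 0.83, against -0.04 over all genes. In LFD MTX50 against LFD, 5 were called, 3 higher (Mt1, Mt2 and Slc39a14) and 2 lower (Mtf1 and Slc30a10), beside 28.1% of all genes called (17.6% higher and 10.5% lower), with a median of 0.27 against 0.10. In HFD against LFD, 3 were called, Slc39a4 higher and Slc30a1 and Slc30a10 lower, beside 28.3% of all genes called (18% higher and 10.4% lower), with a median of -0.34 against 0.08. Slc39a4 was the 1 gene called between HFD MTX50 and LFD MTX50 (16.1% of all genes), and Slc30a1 the 1 called for a difference between the treatment effects (26.8%). Groups did not overlap for 4 of the 7 genes in HFD MTX50 against HFD (11.4% of all genes), for 4 in LFD MTX50 against LFD (29.1%), for 4 in HFD against LFD (40.3%) and for 0 in HFD MTX50 against LFD MTX50 (6.13%). The comparisons share groups and are not independent of each other. The 7 genes, and the lists counted in the paragraphs below, were chosen with earlier results of these data known. Their counts beside the shares of all genes are therefore a description and not a test.

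**Figure D4:**
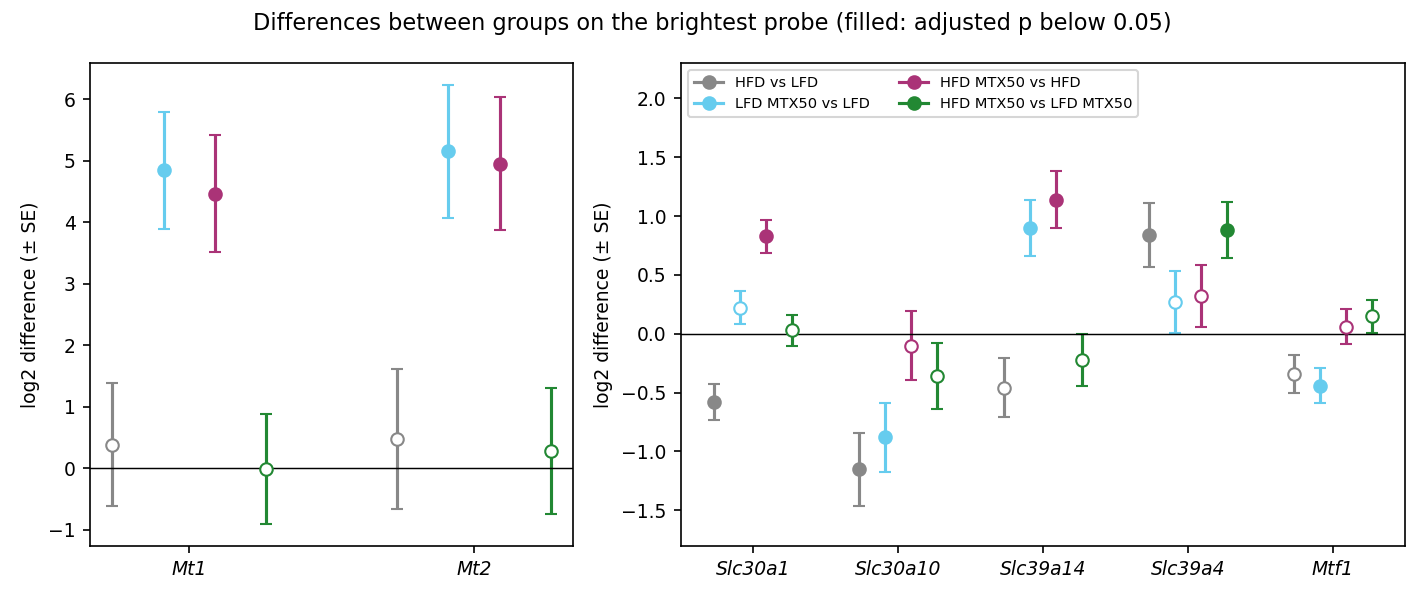
Log2 differences between groups with their SE for the 7 genes on their brightest probes (left, metallothioneins; right, transporters and Mtf1, on a finer scale), with filled points where the adjusted p was below 0.05. The treatment differences of Mt1 and Mt2 lay between 4.46 and 5.15, those of Slc39a14 at 0.90 and 1.14, and the other differences between -1.15 and 0.88.

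Calls among the other genes of zinc transport went in both directions. Of 8 other ZnT genes, all kept after the filter on dim probes, treatment on LFD called 1 higher and 2 lower, and treatment on HFD called 1 lower, beside 28.1% and 11% of all genes called, with medians of -0.17 and -0.06. Slc30a7, a transporter of the early secretory pathway, fell by 2.11 in LFD MTX50 (limma adjusted p = 0.0169), and Slc30a6 changed by -0.31 there (adjusted p = 0.0445). Slc30a2 changed by -0.45 in HFD MTX50 (limma adjusted p = 0.0265). Slc30a3, called higher in LFD MTX50 and in HFD than in LFD (limma adjusted p = 0.002 and 0.0061), was well above background on 0 of 4 LFD arrays, 4 of 5 LFD MTX50 arrays and 2 of 4 HFD arrays, so no fold is given. Of 12 other ZIP genes, treatment called 1 lower on LFD, Slc39a8, the closest relative of Slc39a14 (-0.49, limma adjusted p = 0.0158), and 1 higher on HFD, Slc39a1 (0.50, adjusted p = 0.0305), with medians of 0.00 and -0.03. On HFD 6 of the 12 had an unadjusted p below 0.05, a threshold at which the share of all genes was not counted. Slc39a8 was also lower in HFD than in LFD (-0.45, limma adjusted p = 0.0297), and its treatment effects differed between diets by 0.79 (adjusted p = 0.0104).

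The other 2 metallothionein genes did not share the size of the Mt1 and Mt2 changes. Mt3, known best from brain, rose by 0.83 in LFD MTX50 (limma adjusted p = 0.0025) and was 0.59 higher in HFD than in LFD (adjusted p = 0.0151), and its difference on HFD was -0.35 (adjusted p = 0.129), so that the treatment effects differed by -1.18 (adjusted p = 0.0051). Mt4, known from squamous epithelia, passed in no comparison. Of 4 other genes reported to respond to MTF1, 1 was called in HFD against LFD (28.3% of all genes) and 1 in HFD MTX50 against HFD (11%). In LFD MTX50 against LFD, 1 was called higher and 1 lower (28.1% of all genes were called in either direction). Ndrg1 differed by -1.02 in HFD against LFD (limma adjusted p = 0.0134) and by 1.02 in HFD MTX50 against HFD (adjusted p = 0.023). Gclc, the catalytic subunit of glutathione synthesis, fell by 1.17 in LFD MTX50 (limma adjusted p = 0.0324), and Selenow rose by 0.36 there (adjusted p = 0.0489). Of 10 copper handling genes, 2 were called higher and 0 lower after treatment on each diet, beside 17.6% of all genes called higher on LFD and 4.83% on HFD, and Cp (ceruloplasmin, the copper carrying plasma protein) was among both, with 0.79 on LFD (limma adjusted p = 0.0021) and 0.83 on HFD (adjusted p = 0.0067). The others were Atp7b on LFD (0.39, limma adjusted p = 0.0343) and Cox17 on HFD (0.63, adjusted p = 0.0273).

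Genes of the other pathways known to induce metallothioneins were read beside them. Of 13 genes induced by interleukin-6 and STAT3, treatment called 5 higher and 0 lower on LFD (17.6% of all genes were called higher) and 5 higher and 0 lower on HFD (4.83%). All 13 had a difference above 0 on both diets, with medians of 0.92 on LFD and 0.96 on HFD, beside 0.10 and -0.04 over all genes. Socs3, the feedback inhibitor of this pathway, rose by 1.42 on LFD (limma adjusted p = 0.0089) and 1.84 on HFD (adjusted p = 0.0085). Itih4 rose by 1.18 and 0.96 (limma adjusted p = 0.0022 and 0.0144) and the fibrinogen chain Fgb by 0.84 and 0.77 (adjusted p = 0.002 and 0.009). Stat3 was called on LFD (0.95, limma adjusted p = 5.1e-04; 0.33 on HFD) and its treatment effects differed between diets by -0.62 (adjusted p = 0.0196). Haptoglobin, Hp, was also called on LFD (1.03, limma adjusted p = 0.0034; 0.57 on HFD), and Saa3 (1.13, adjusted p = 0.0414; 0.46 on LFD) and Fgg (0.57, adjusted p = 0.019; 0.28 on LFD) were called on HFD, without a difference between diets that passed the test. Of 10 glucocorticoid-induced genes, 3 were called higher on LFD (17.6% of all genes), Zbtb16 (1.95, limma adjusted p = 0.0017), Cebpd (1.54, adjusted p = 0.0099) and Klf9 (0.92, adjusted p = 0.007), and 0 on HFD by limma (3 at an unadjusted p below 0.05), with medians of 0.29 and 0.53 and 8 of 10 above 0 on each diet. Of 9 NRF2 targets, the genes of the electrophile response, 2 were called higher on LFD (beside 17.6% of all genes), Nqo1 (0.84, limma adjusted p = 0.0035) and Gpx2 (0.31, adjusted p = 0.0319), and 1 lower, Gclc, which also stands among the MTF1-responsive genes. On HFD limma called 0 of them, with 0 at an unadjusted p below 0.05. The share of all genes at that unadjusted threshold was not counted for any of these lists, nor was the share of all genes with a difference above 0.

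**Figure D5:**
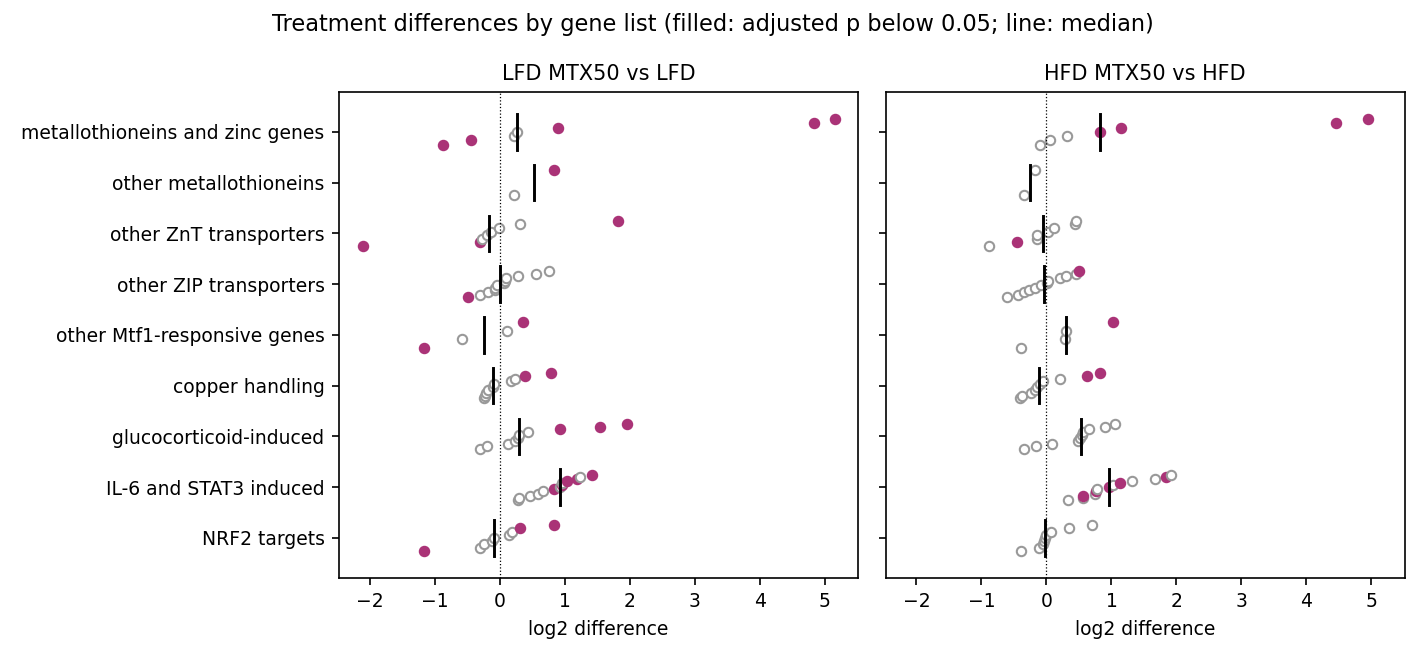
Log2 differences after treatment on LFD (left) and HFD (right) for the 7 metallothionein and zinc genes and for 8 lists of related genes (1 point per gene on its brightest probe, filled where the adjusted p was below 0.05, vertical line at the median of the list). Mt1 and Mt2 lie apart at 4.46 to 5.15, and the medians of the other ZnT and ZIP genes lie near 0. All 13 interleukin-6 and STAT3 induced genes lie above 0 on both diets, with 5 called on each. The share of all genes above 0 was not counted.

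The 5 genes whose levels were most like Mt1 over the 18 livers, among 17521 genes above background on every array, were Krtap11-1 (r = 0.94), Apcs (0.937), Serpina3n (0.934), Fhad1 (0.934) and Fgl1 (0.931). Within groups r was 0.865, 0.841, 0.858, 0.826 and 0.725. The points share arrays and their scaling, and the ranking is given as a description. Apcs (serum amyloid P), Serpina3n and Fgl1 encode secreted proteins of the acute phase. The mean log2 level of Fgl1 was 4.16 in LFD and 6.69 in LFD MTX50, and 4.16 in HFD against 6.37 in HFD MTX50. Apcs had means of -0.19, 1.73, -0.20 and 1.25, and Serpina3n of 1.34, 3.08, 1.53 and 2.68, in the same order of groups. In that order Krtap11-1, the gene most like Mt1, had means of -0.4, 1.11, -0.29 and 0.8. Those of Fhad1 were -4.99, -3.7, -4.94 and -3.98. Since Mt1 itself separated treated from untreated livers, the choice by likeness to it fixes that the treated means of these genes lie above the untreated ones.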

How the data were processed

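Total RNA of 18 livers, 1 array each, was hybridised by the authors to 1-colour Agilent arrays. The deposited scanner files, made per the file headers with Agilent Feature Extraction 10.7.3.1, give a background-corrected intensity for each spot, and the deposited series table holds background-subtracted intensity values (100% equal to those of the scanner files within 0.6%). Here the log2 of the processed intensity minus that of the array's 75th percentile was taken, outlier spots were left out, spots of a probe were averaged, and probes well above background on at least 4 of 18 arrays were kept (35739 of 39429). Probes were named through a RefSeq table (GRCm38.p6) by transcript accession (28025 probes, 71.1%), and a gene was read on its brightest probe. A model of the 4 groups was fitted with limma 3.58.1 in R 4.3.3, its p-values were adjusted over the kept probes by Benjamini-Hochberg, and an adjusted p below 0.05 was called. Exact permutation tests are 2-sided. No array was left out, and their number limits the precision. The labels number the mice within groups, and p-values measure the spread between these mice. Over the kept probes as a whole, the deviations of same-numbered mice of different groups had a median correlation of -0.0208 (7 of 25 pairs above 0.1). For mice of different numbers it was -0.00378 (20 of 96 pairs above 0.1). For Mt1 and Mt2, however, mouse 4 was the lowest of each of the 4 groups. With the replicate number as a block the SE of the Mt1 treatment difference was 0.63 in place of 0.95 on both diets. Whether mice of the same number shared a condition was not tested. Named beside the 7 genes are, from each related list, at most 5 genes per comparison past the adjusted p, and the 5 genes most like Mt1. The genes and lists were chosen with earlier results of these data known. In the normexp alternative (offset 50) the median spot signal replaced the mean signal. A Student t-test at an unadjusted p up to 0.015 and 2-fold was an alternative. The authors give these cutoffs for their arrays without naming the test. The erythroid marker list was shortened by 1 gene, which is not reported here.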

Additional observations from a re-analysis of the deposited data

Results flagged for a closer look

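The effect of methotrexate differed between the diets for Slc30a1, by 0.61 on the log2 scale (HFD effect minus LFD effect; limma interaction, adjusted p = 0.0315). This call was kept in 12 of the 18 fits that left out 1 array. The call was lost with slide as a random block (limma adjusted p = 0.138), without HFD MTX50 mice 4 and 5 (0.0739), under quantile normalization (0.0538) and under normexp correction (0.74). For the second Mtf1 probe the effect of methotrexate differed between the diets by 0.61 as well (limma adjusted p = 0.0219; lost with slide as a random block, 0.0874, without HFD MTX50 mice 4 and 5, 0.0709, and without HFD mouse 3, 0.054), whereas the brighter Mtf1 probe gave 0.50 (limma adjusted p = 0.0885). Of 36 groups of 4 or 5 mice examined for a single distant mouse, over the 9 tested probes of the 7 genes, none met Dixon's criterion.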

How the results depend on the processing

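The 7 genes gave 3 calls in HFD against LFD, 4 in HFD MTX50 against HFD, 5 in LFD MTX50 against LFD, 1 in HFD MTX50 against LFD MTX50 and 1 for the difference between treatment effects. In that order, normexp background correction gave 0, 0, 1, 0 and 0 calls, and over all named genes 2, 0, 339, 1 and 0, while 2, 4, 3, 1 and 1 of the 7 genes had an unadjusted limma p below 0.05 in it. Under it the median difference of all genes was 0.37, 0.39, 0.47 and 0.34 in the first 4 comparisons, in place of 0.08, -0.04, 0.10 and -0.06, and it turned Mtf1 in LFD MTX50 against LFD to 0.14. There Mt1 and Mt2 differed by 4.58 and 4.88 on LFD and by 4.13 and 4.43 on HFD. Slide as a random block (correlation 0.262) gave 0, 4, 0, 0 and 0. A fit of only the 2 groups compared gave 0 in HFD MTX50 against HFD (4 at an unadjusted p below 0.05), 3 in LFD MTX50 against LFD and 0 in HFD MTX50 against LFD MTX50, and so did a Student t-test after Benjamini-Hochberg adjustment. Their t-test with its own threshold gave 1 in HFD against LFD, 3 in HFD MTX50 against HFD (without Slc30a1), 2 in LFD MTX50 against LFD and 0 in HFD MTX50 against LFD MTX50, and adding a 2-fold minimum to the limma calls gave 1, 3, 2 and 0 there and 0 for the difference between effects. Scaling to the median and averaging the probes of a gene each gave 2 for that difference. Leaving out HFD MTX50 mice 4 and 5 together, chosen after seeing the data, gave 3, 4, 5, 0 and 0. Leaving out 1 array at a time gave 2 to 3, 2 to 4, 3 to 5, 0 to 1 and 0 to 2 calls. It was 2 in HFD MTX50 against HFD without HFD mouse 4, 3 in LFD MTX50 against LFD without LFD mouse 4 or LFD MTX50 mouse 1, 0 in HFD MTX50 against LFD MTX50 without LFD MTX50 mouse 2 or 3 or HFD MTX50 mouse 4 or 5, and for the difference between effects 0 without LFD mouse 1 or 4, LFD MTX50 mouse 1 or 2 or HFD mouse 3 or 4, and 2 without LFD MTX50 mouse 4. With the replicate number as a block the counts were 2, 4, 4, 1 and 1, and whether mice of the same number shared a condition was not tested. Quantile normalization gave 1 call for the difference between effects, then of Mtf1 in place of Slc30a1, and moved the share of higher calls over all genes from 63.4 to 45.6% in HFD against LFD and from 62.7 to 44.8% in LFD MTX50 against LFD. The share of all genes at an unadjusted p below 0.05 was not counted in any setting. The causes were not tested.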
